A study of Homo sapiens with 4 samples.

Results

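TPC1 is a line of human papillary thyroid cancer cells that carries a CCDC6-RET fusion, an active receptor tyrosine kinase. RNA was sequenced from TPC1 cells with an empty vector (TPC1-Vector) and from TPC1 cells with a vector expressing C1orf106, now named INAVA (TPC1-INAVA), with 2 libraries in each group. Both lines had been made with retrovirus and selected with 0.5 μg/mL puromycin, so the controls shared the vector backbone and the selection, and nothing states whether the libraries of a group came from separate cultures. Described here are 10 genes that ERK signalling is known to induce, chosen by name from the 13165 genes of the table, with earlier results of these data known: the dual-specificity phosphatases DUSP4, DUSP5 and DUSP6, the Sprouty genes SPRY1, SPRY2 and SPRY4, the Spred genes SPRED1 and SPRED2, and the PEA3 factors ETV4 and ETV5. All 10 had a value in each group.

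Receptor tyrosine kinases signal to ERK through RAS, RAF and MEK, and ERK then induces transcripts whose products switch the pathway off again. The phosphatases remove the activating phosphates from ERK, Sprouty proteins block the path from the receptor to RAF, and Spred proteins bring neurofibromin to RAS and inactivate it. ETV4 and ETV5 are transcription factors of the PEA3 branch of the ETS family and classical outputs of fibroblast growth factor signalling. Because these transcripts follow the activity of the pathway, they are often used as a readout of it in thyroid cancer.

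The authors deposited 1 FPKM value per gene and group (a fragment count divided by transcript length and by the mapped fragments of the library), which corrects for transcript length, so levels may also be compared between genes. Both libraries of a group had gone into that value, so no spread between replicates could be computed and no test was run here (the p-values the authors deposited were not used), and the depth of the libraries is unknown. Genes whose mean reached 0.5 FPKM were compared (12305 genes, 9 of the 10 described here) by the difference of log2(FPKM + 0.5), TPC1-INAVA minus TPC1-Vector, which understates the difference of weakly expressed genes. INAVA itself, listed as C1orf106, was at 7.96 FPKM in TPC1-Vector against 123 FPKM in TPC1-INAVA. The median log2 difference of all 12305 genes was 0.0033. Of the markers of thyroid cells, 2 of 7 had a value, the transcription factors PAX8 (60.1 and 55.7 FPKM) and FOXE1 (5.26 and 5.89 FPKM). Values were listed for 3 of 6 epithelial markers (summed 166 and 224 FPKM, of which KRT18 was at 140 and 212 FPKM and KRT8, in the opposite direction, at 23.4 and 10.5 FPKM), 3 of 6 fibroblast markers (3.56 and 2.19 FPKM), 2 of 5 leukocyte markers (6.66 and 9.61 FPKM) and 0 of 4 endothelial markers, in each case with TPC1-Vector first, and their part in the values below was not tested. In a bulk library, fewer cells with a transcript and less of it per cell cannot be told apart.

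Most of the feedback and PEA3 transcripts were lower in TPC1-INAVA. Of the 9 genes at the filter, 8 were lower, all but DUSP6, where 49.2% of all genes tested were lower, and the median log2 difference of the 9 was -0.30. With 0.5 added to each value, at least 1.5-fold lower was 1 gene, ETV5, against 1.45% of all genes tested. At least 1.5-fold higher were 0 genes, against 2.24%. With nothing added, the weakly expressed SPRY1 was 1.57-fold lower as well. Counting differences of at least 25% (the higher value over the lower one, 0.5 added to each), 4 genes were lower (ETV5, SPRY2, SPRY1 and DUSP5) against 6.74% of all genes, and 0 were higher against 7.69%. With 1 FPKM added in place of 0.5, ETV5 did not reach the 1.5-fold line and 0 genes were past it. Without ETV5 and DUSP5, which lie among genes that were mostly lower, 6 of the other 7 were lower and the median was -0.10. The differences were thus small in size, with ETV5 just inside the 1.5-fold line. ETV4 and DUSP6 were just short of the 25% line, below and above 0. With nothing added ETV4 passed that line, at 1.26-fold lower, and DUSP6, at 1.24-fold higher, did not.

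**Figure D1:**
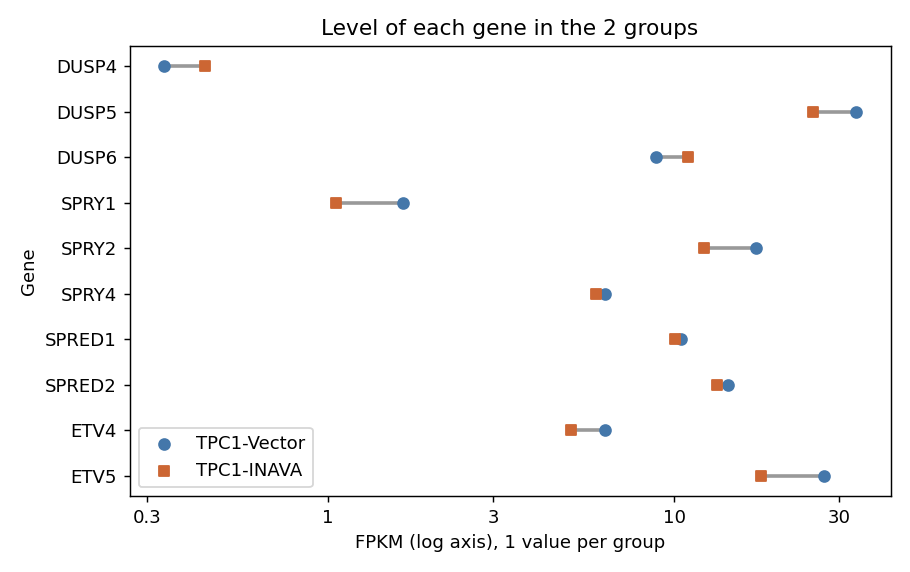
Level of each of the 10 genes in FPKM (log axis), with a circle for TPC1-Vector, a square for TPC1-INAVA and a line joining the values of a gene. DUSP5 and ETV5 were highest in both groups and DUSP4 lowest, and the square lies left of the circle for all but DUSP4 and DUSP6.

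DUSP5, a nuclear phosphatase specific for ERK, had the highest level of the 10 genes in both groups, at 33.6 FPKM in TPC1-Vector against 25.3 FPKM in TPC1-INAVA. The ratio of the FPKM values was 0.752 and the log2 difference -0.40, a value as low as which was found in 4.29% of all genes tested. DUSP5 is a forward-strand gene of chromosome 10 (110497867 to 110511544, GRCh38), and its neighbours were lower to the same extent, as described below.

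DUSP6, the cytoplasmic phosphatase specific for ERK, went the other way, with 8.85 FPKM in TPC1-Vector against 11.0 FPKM in TPC1-INAVA. Its ratio was 1.24 and its log2 difference 0.30, and 8.66% of all genes tested were at least as high. Of the 9 genes it alone was higher. It lies on the reverse strand of chromosome 12 (89347825 to 89352859), where 4 coding transcripts are annotated in GENCODE release 29, and the table gives 1 value for all of them.

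DUSP4, the other nuclear inducible phosphatase of the group, was weakly expressed, at 0.336 FPKM in TPC1-Vector against 0.440 FPKM in TPC1-INAVA. With a mean under 0.5 FPKM it was left out of the counts, and without the filter its log2 difference was 0.17 and the median of all 10 genes was -0.20. Within the phosphatases the balance thus differed between the groups. The level of DUSP6 was 0.264 times that of DUSP5 in TPC1-Vector and 0.435 times in TPC1-INAVA, a ratio that does not depend on how the columns were scaled. This ratio still includes the lower value that DUSP5 shared with its neighbours, and 1 value per group gives no spread for it. The summed level of the 3 phosphatases was 42.7 FPKM and 36.7 FPKM, most of it DUSP5.

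The Sprouty genes did not move as a block. SPRY2, the Sprouty gene with the highest level in these cells, was at 17.2 FPKM in TPC1-Vector against 12.2 FPKM in TPC1-INAVA, a ratio of 0.708 and a log2 difference of -0.48. Of all genes tested 2.64% were as low, and of the 4604 genes within 2-fold of its mean level 1.93% were. SPRY1 was weakly expressed, at 1.65 FPKM and 1.05 FPKM, with a ratio of 0.638. Its log2 difference, -0.47, depended on the value added to the FPKM and was -0.60 with 0.1 added and -0.37 with 1 added. SPRY4 was nearly level, at 6.32 FPKM and 5.94 FPKM, a ratio of 0.940 and a log2 difference of -0.083.

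SPRY2 was 2.72 times as high as SPRY4 in TPC1-Vector and 2.05 times in TPC1-INAVA. The sum of the 3 Sprouty genes was 25.2 FPKM in TPC1-Vector against 19.2 FPKM in TPC1-INAVA, and SPRY2 made up most of the difference. SPRY1 and SPRY2 each hold their coding sequence in 1 exon, for proteins of 319 and 315 residues. SPRY4 shares its position in the table (chromosome 5, 142310427 to 142325055) with a second entry, the noncoding SPRY4-IT1, at 0.548 FPKM and 1.0 FPKM, so the assignment of fragments between these overlapping entries is uncertain.

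As SPRY1 and SPRY2 were lower by more than SPRY4 was, the 250 bases before their outermost RefSeq starts are shown (GRCh38.p14). The window of SPRY1 is chr4:123396545-123396794 on the forward strand and that of SPRY2 is chr13:80341127-80341376 on the reverse strand. Both are outside the exons that GENCODE annotates for these genes. Capitals mark the PEA3 hexamer AGGAAG on either strand (CTTCCT when read on the other one).
SPRY1: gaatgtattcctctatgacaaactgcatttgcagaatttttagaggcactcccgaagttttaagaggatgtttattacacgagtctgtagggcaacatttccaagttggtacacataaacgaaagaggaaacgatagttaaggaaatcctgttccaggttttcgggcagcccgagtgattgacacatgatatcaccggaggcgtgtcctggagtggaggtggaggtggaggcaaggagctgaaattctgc
SPRY2: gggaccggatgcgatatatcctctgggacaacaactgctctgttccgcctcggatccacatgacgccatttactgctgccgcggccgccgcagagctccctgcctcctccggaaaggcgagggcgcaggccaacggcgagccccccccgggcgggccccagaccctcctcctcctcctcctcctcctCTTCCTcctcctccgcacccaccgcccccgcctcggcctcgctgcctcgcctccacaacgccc

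In the SPRY2 window the hexamer stands once, on the opposite strand, 63 to 58 bases before the start, and the SPRY1 window shown holds no match to it, whereas that of the inner SPRY1 start holds 1, 215 to 210 bases before that start. RefSeq windows were matched for 6 of the 10 genes (DUSP6, SPRY1, SPRY2, SPRY4, SPRED1 and SPRED2), with 10 windows in all because some genes have several starts. AGGAAG was found in 8 of these 10 windows and in 28.7% of the 35116 windows of all genes. Windows of the same gene were counted separately, and by gene it was in 5 of the 6, all but SPRY4. No share by gene was computed for all genes, and a gene with several windows has more chances of a match. The count by gene thus cannot be set beside 28.7%. The inner windows of SPRY2 and SPRED2 lie outside exons but within those genes. The windows of DUSP6, SPRED1 and the inner SPRY1 start lie wholly within exons that GENCODE annotates for these genes (250 bases each). Of the SPRY4 window 170 bases do, and of the outer SPRED2 window 38. The related ETS hexamer CGGAAG was found in 2 of the 10 (DUSP6 and the inner start of SPRY1) and in 16.5% of all windows. The AP-1 heptamer TGANTCA was found in 0 of the 10 and in 6.57% of all, and the first bases of the cyclic AMP response element, TGACG, in 2 of the 10 (SPRY2 and SPRY4) and in 21.2% of all. Both strands were searched, and these motifs do not contain each other. DUSP6, the gene that was higher, and SPRY2, which was lower, both held AGGAAG, so the presence of the hexamer did not separate them.

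The Spred genes were the least different of the set. SPRED1, whose product recruits neurofibromin to RAS, was at 10.5 FPKM in TPC1-Vector against 10.0 FPKM in TPC1-INAVA, a log2 difference of -0.061. SPRED2, a related inhibitor with the same domains, was at 14.3 FPKM and 13.3 FPKM, a log2 difference of -0.10. Of all genes tested, 35.1% were as low as SPRED1 and 27.5% as low as SPRED2. In TPC1-Vector SPRY2 was 1.20 times as high as SPRED2, and in TPC1-INAVA 0.915 times. The order of the levels therefore changed, with SPRY2 at rank 3 and SPRED2 at rank 4 in TPC1-Vector and the reverse in TPC1-INAVA.

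ETV5 had the largest log2 difference of the set, whereas the ratio of the FPKM values was lowest for SPRY1 (0.638). It was at 27.2 FPKM in TPC1-Vector against 17.9 FPKM in TPC1-INAVA, a ratio of 0.657 and a log2 difference of -0.59. Of all genes tested 1.34% were as low (165 genes), and of the 4269 genes at a like level 0.843% were. ETV5 lies on the reverse strand of chromosome 3 (186046317 to 186109112), and GENCODE places an antisense gene, ETV5-AS1, and part of DGKG over it, neither of which overlaps it in the table.

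ETV4, the second PEA3 factor, was lower too, at 6.32 FPKM and 5.03 FPKM, a ratio of 0.795 and a log2 difference of -0.30, with 7.44% of all genes tested as low. ETV5 was 4.30 times as high as ETV4 in TPC1-Vector and 3.55 times in TPC1-INAVA. The remaining factor of the branch, ETV1, is not among the 10 genes and was looked up after the values of the others had been seen. It was at 4.34 FPKM and 3.38 FPKM, a log2 difference of -0.32. The sum of ETV4 and ETV5 was 33.5 FPKM in TPC1-Vector against 22.9 FPKM in TPC1-INAVA, the largest relative difference among the classes of genes, with a ratio of 0.683. Most of this sum was ETV5, which lies among genes that were mostly lower, as described below. The ratio of summed levels was 0.762 for Sprouty, 0.858 for the phosphatases and 0.941 for Spred.

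**Figure D2:**
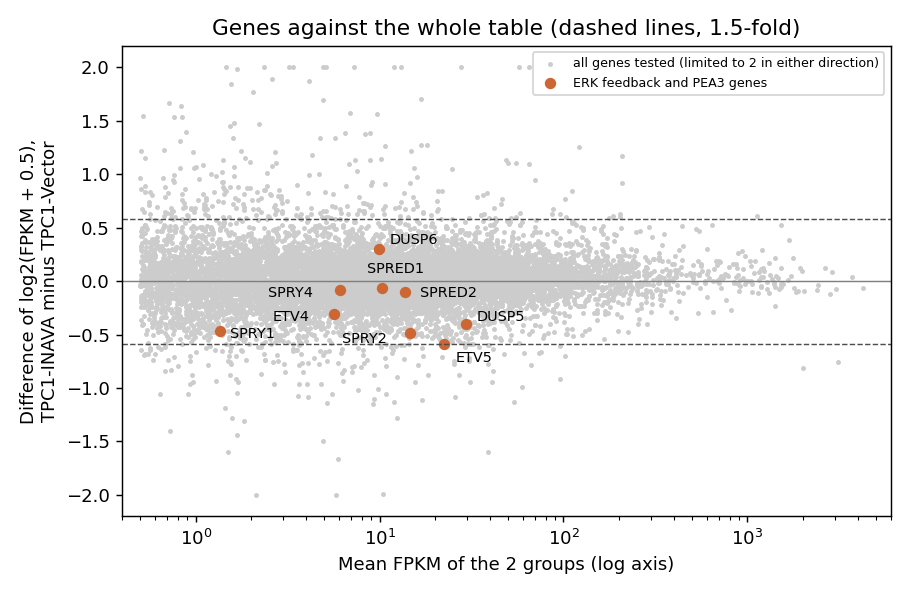
Log2 difference between the groups against the mean level (log axis) for all genes tested in grey, limited to 2 in either direction and with 1 entry above 6000 FPKM outside the axis, and for the 9 ERK feedback and PEA3 genes in orange. Dashed lines stand at 1.5-fold. ETV5 lies at the lower line, SPRY2, SPRY1 and DUSP5 lie above it, and DUSP6 is the orange point above 0.

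DUSP6 was compared directly with SPRY2 and ETV5, the genes with the lowest log2 differences of the set, as ratios within a column. The level of DUSP6 was 0.514 times that of SPRY2 in TPC1-Vector and 0.902 times in TPC1-INAVA, a 1.75-fold difference between the ratios. Against ETV5 it was 0.325 times and 0.615 times, a 1.89-fold difference. ETV5 lies among genes that were mostly lower, and scaling a column does not remove this from the ratio. Feedback transcripts of the same pathway therefore differed unequally between the groups, under any common scaling of a column. Whether these ratios differ beyond the spread between libraries cannot be told from 1 value per group.

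In parts of chromosomes 3 and 10 most genes were lower in TPC1-INAVA, so each gene was set beside its neighbours, the genes within 5 Mb on either side with a mean of at least 1 FPKM. The 21 neighbours of DUSP5 had a median log2 difference of -0.36 and 20 of them were lower. DUSP5 differed from that median by -0.045, and 8 of the 21 neighbours were at least as low as DUSP5. The value of DUSP5 was thus like that of the genes around it.

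ETV5 also lies among genes that were lower, but less so than ETV5 itself. Its 46 neighbours had a median of -0.24, with 39 of them lower, and ETV5 was below that median by -0.36. Only 2 of the 46 were as low as ETV5. The part of the neighbourhood in the values of DUSP5 and ETV5 was not tested.

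SPRY2 and ETV4 lay in regions with little shift, and SPRY1 in one that was somewhat lower (18 of 28 neighbours). The 12 neighbours of SPRY2 had a median of -0.023 and 0 of them were as low as SPRY2, which was below the median by -0.46. For SPRY1 the median of 28 neighbours was -0.10, with 1 as low, and the gene was below it by -0.36. For ETV4 the median of 119 neighbours was -0.0023, with 6 as low, and the gene was below it by -0.30. DUSP6 was above its 14 neighbours, with a median of 0.072 and 1 of them as high. SPRY4, SPRED1 and SPRED2 lay within 0.11 of their neighbours. Relative to neighbours, the median of the 9 genes was -0.11 in place of -0.30, and 8 of the 9 were again below.

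**Figure D3:**
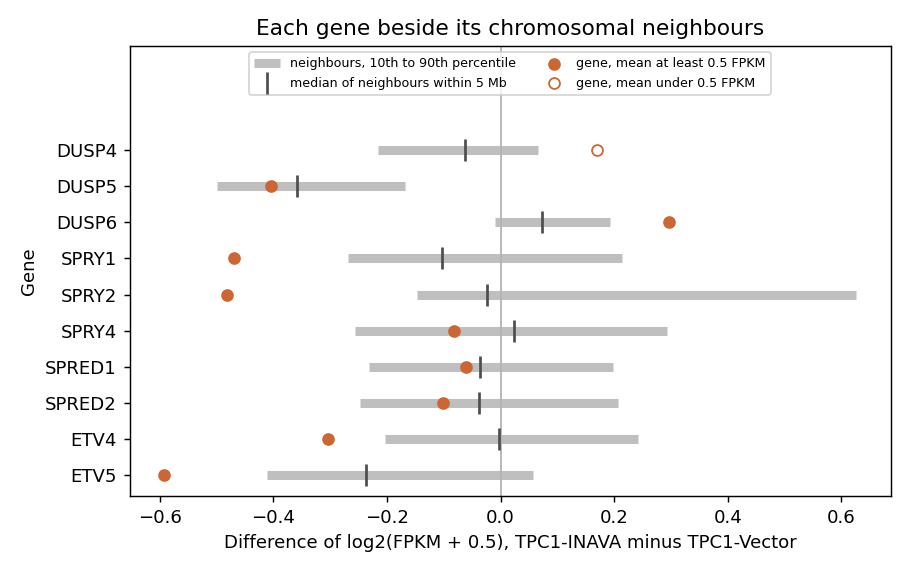
Log2 difference of each gene (points, open for DUSP4 with a mean under 0.5 FPKM) beside the median (tick) and the 10th to 90th percentile (grey bar) of the genes within 5 Mb. DUSP5 lies inside the bar of its neighbours, whereas SPRY1, SPRY2, ETV4 and ETV5 lie below theirs and DUSP6 above.

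The kinases and adaptors that carry the signal differed little. Of 23 genes of the ERK pathway core, from the adaptor GRB2 to the kinases downstream of ERK, 10 were higher and 13 lower, with a median log2 difference of -0.029. At least 1.5-fold higher was 1 gene, RPS6KA2, a kinase activated by ERK, at 1.92 FPKM in TPC1-Vector against 3.47 FPKM in TPC1-INAVA. None (0 of 23) was 1.5-fold lower, against 1.45% of all genes tested. The lowest log2 difference, -0.44, was that of SHOC2, a scaffold for RAF activation, at 24.0 and 17.6 FPKM, which lies near DUSP5 and among the same lower genes.

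Among the MAPK phosphatases outside the set, DUSP1 stood apart. DUSP1, a nuclear phosphatase induced by growth factors and by stress that acts mainly on p38 and JNK, was at 10.4 FPKM in TPC1-Vector against 26.0 FPKM in TPC1-INAVA, a ratio of 2.48 and a log2 difference of 1.27. It was thus 1.18 times as high as DUSP6 in TPC1-Vector and 2.36 times in TPC1-INAVA. Of the 6 genes of this list at the filter, 4 were higher and 2 lower. DUSP1 was the only 1 at least 1.5-fold higher, against 2.24% of all genes tested, and 0 were 1.5-fold lower, against 1.45%. The lowest of the list was DUSP9 (1.5 and 0.982 FPKM), with a log2 difference of -0.43.

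Other inhibitors of the pathway went both ways, with 5 of 11 higher, 6 lower and 0 past 1.5-fold in either direction. The highest of them at a mean of at least 1 FPKM was ERRFI1, an inhibitor of the EGF receptor, at 34.6 and 46.3 FPKM (log2 difference 0.41), and the lowest was RASA1, a RAS GTPase-activating protein, at 46.1 and 38.7 FPKM (log2 difference -0.25). Of 16 other ETS factors 8 were higher and 8 lower, with a median of -0.016. ELF3, an epithelial ETS factor, was the 1 past 1.5-fold, at 0.910 and 2.03 FPKM, and ELF1 was the lowest, at 21.4 and 17.0 FPKM. For both lists, the shares of all genes tested past 1.5-fold were 2.24% higher and 1.45% lower. With 0.1 added in place of 0.5, 1 of the inhibitors was at least 1.5-fold higher, the weakly expressed SPRY3 (0.371 and 0.686 FPKM). At that setting 2 of the ETS factors were, and the share of all genes was not computed.

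Other transcripts known to be induced by ERK went both ways. Of 15 at the filter, 7 were higher and 8 lower, and their median log2 difference was -0.0099. PLAUR, the urokinase receptor, was 1.5-fold higher, at 27.9 and 42.9 FPKM, as was HBEGF, a ligand of the EGF receptor, at 4.26 and 6.66 FPKM. EREG, another ligand of that receptor, was 1.5-fold lower, at 2.25 and 1.26 FPKM. Past 1.5-fold were thus 2 of 15 higher, against 2.24% of all genes tested, and 1 of 15 lower, against 1.45%. The medians of these lists, between -0.046 and 0.089, lay closer to that of all genes than the median of the 9 feedback and PEA3 genes did, which was not tested. Without ETV5 and DUSP5 the median of the set was -0.10. Leaving out SPRY1 and SPRY2 instead would give the same median, so that drop is not particular to ETV5 and DUSP5. Relative to chromosomal neighbours the median of the 9 was -0.11. The medians of the other lists, such as the 0.089 of the other MAPK phosphatases, were not taken relative to neighbours. They cannot be set beside that value.

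**Figure D4:**
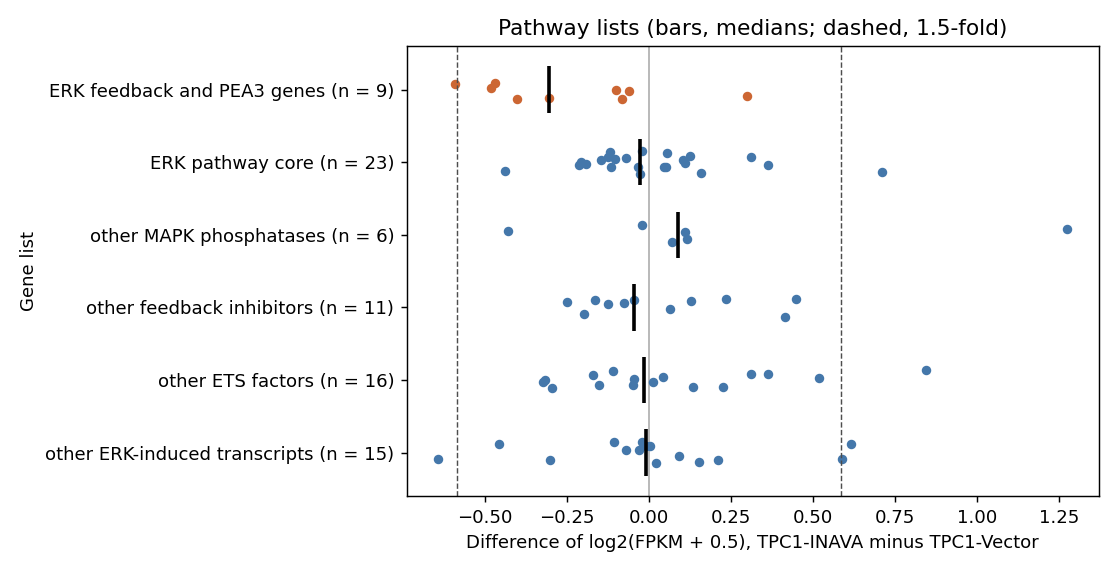
Log2 difference of each gene at a mean of at least 0.5 FPKM, by list, with the median as a bar and 1.5-fold as dashed lines. The median of the 9 feedback and PEA3 genes was -0.30 (-0.10 without ETV5 and DUSP5) and those of the other lists lay near 0. DUSP1 is the point farthest to the right.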

How the data were processed

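Paired-end RNA-seq of 4 libraries, 2 per group, was made by the study. Per the labels, the authors' processing used CASAVA, Cufflinks 2.1.1 and Cuffdiff with genome build hg38, while the aligner and the annotation are not given in the sources used here. The deposited FPKM values are 1 per gene and group, with libraries combined by the authors. The table also holds the authors' own log2 ratios, p-values and q-values, which were not used. With 1 value per group no spread, interval or test could be computed, and the number of fragments behind a value is unknown.

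Members, gene lists and thresholds were chosen with earlier results of these data known. Differences of log2(FPKM + 0.5) were computed for genes whose mean reached 0.5 FPKM, and shares past 1.5-fold were set beside those of all genes tested. Named genes are the 10 members, INAVA, SPRY4-IT1, which shares the position of a member, and, in each pathway list and with a mean of 1 FPKM or more, genes past 1.5-fold and the highest and lowest gene. ETV1 and the weakly expressed SPRY3 were added after their values were seen. Starts in the table count from 0 and were raised by 1. Gene structures came from GENCODE release 29 and start-site windows from RefSeq (GRCh38.p14). Alternatives were pseudocounts of 0.1 and 1, no filter or a mean of 1 FPKM, median-of-ratios scaling, quantile normalization, differences of 25% and of 2-fold, neighbours within 2 and 10 Mb, and the set without ETV5 and DUSP5. The scripts were tested on simulated data. Python 3.11.15, numpy 2.4.6, pandas 2.3.3 and matplotlib 3.10.9 were used.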

Additional observations from a re-analysis of the deposited data

How the results depend on the processing

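No paired analysis was possible because the table has 1 value per group, and for the same reason no library could be left out. Neither a pseudocount nor a filter can change the sign of a log2 difference. Each of the 9 genes also kept its sign under both scalings, which moved values little. The median of all genes tested was 0.0033 without scaling, -0.00053 with median-of-ratios scaling and -0.0063 with quantile normalization. Across pseudocounts, filters and scalings the log2 difference ranged from -0.60 to -0.58 for ETV5 and from -0.49 to -0.47 for SPRY2. The range was -0.41 to -0.40 for DUSP5, -0.33 to -0.28 for ETV4 and 0.28 to 0.31 for DUSP6. The number of genes at least 1.5-fold lower, 1 as reported, was 2 with a pseudocount of 0.1, 0 with a pseudocount of 1, and 0 without ETV5 and DUSP5, and at other limits it was 4 for differences of 25% and 0 for 2-fold. SPRY1, a weakly expressed gene, passed the line with 0.1 added (-0.60, against -0.37 with 1 added), and ETV5, which lies at the line, did not reach it with 1 added. The median log2 difference, -0.30 as reported, was -0.20 with no filter, which adds DUSP4, and -0.10 without ETV5 and DUSP5, which removes 2 of the 9. Relative to neighbours it ranged from -0.12 to -0.073. As the depth is unknown, no counting error can be given, also for weakly expressed genes such as SPRY1 and DUSP4.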
